A study of Mus musculus with 2 samples.

Results

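The genes Mir99a, Mir99b, Mir100, Mir125a, Mir125b-1 and Mir125b-2 were followed in the left cerebral cortex of newborn mice. They were chosen by symbol, as the rows of the deposited tables whose Ensembl gene ID carries one of these 6 names in GENCODE annotation M21, a rule that uses no measured value, although earlier results of these data were known when it was set. All 6 of 6 were found among 2202 microRNA genes, and all 6 were detected, with at least 2 CPM (counts scaled to 1000000 microRNA counts per library) in both libraries, as were 450 genes in all. The tissue was left cerebral cortex, taken 4 days after birth from female mice of the strain B6CASTF1/J, with no treatment named in the labels. B6CASTF1/J is an F1 hybrid between the C57BL/6J and CAST/EiJ inbred strains, so each animal carries 1 genome of each parent. A single group of 2 separately numbered animals, with 1 library of RNA under 30 bases each, was measured. There is thus no second condition to compare with, and no p-value is given.

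MicroRNAs are cut from a hairpin into short mature strands, and the bases 2 to 8 of a mature strand, its seed, do most of the pairing with target messenger RNAs. The Mir125 genes are the mammalian counterparts of lin-4, a microRNA that times larval development in Caenorhabditis elegans, and Mir99 and Mir100 belong to the old Mir10 superfamily. In mammals a Mir99 or Mir100 gene, a let-7 gene and a Mir125 gene often lie side by side and can be made from the same primary transcript. In the nervous system miR-125b is known for promoting neuronal differentiation and let-7 for accumulating as progenitors mature, while miR-99 and miR-100 are known as repressors of the growth kinase Mtor in several cell types.

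The mature strands are shown because the seeds split the 6 genes into the groups described here and because identical or nearly identical strands decide which counts can be told apart. Sequences are those of RefSeq on GRCm38.p6, written 5′ to 3′, with the seed in capitals. All 6 genes had an entry. The strands of the 5p arm are these.
miR-99a-5p: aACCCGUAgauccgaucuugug
miR-100-5p: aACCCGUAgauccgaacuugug
miR-99b-5p: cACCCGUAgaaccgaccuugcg
miR-125a-5p: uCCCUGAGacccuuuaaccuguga
miR-125b-5p, from Mir125b-1 and Mir125b-2 alike: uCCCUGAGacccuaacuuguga

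Mir99a, Mir99b and Mir100 share the seed ACCCGUA, and no other gene in the RefSeq table has it. Counted from 1 at the 5′ end of the 22-base miR-99a-5p, miR-100-5p differs by 1 substitution, U16A. Mature miR-99b-5p differs from miR-99a-5p by 4 substitutions, A1C, U11A, U16C and U21C, none of them inside the seed. The Mir125 genes share the seed CCCUGAG, and miR-125a-5p and miR-125b-5p are alike over their first 13 bases. Mature miR-125b-5p is the same molecule from both of its genes, so the 2 genes can be told apart only by reads from the rest of the hairpin. The strands of their 3p arms differ at 5 of 22 positions and have different seeds.
miR-125b-1-3p: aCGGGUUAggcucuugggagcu
miR-125b-2-3p: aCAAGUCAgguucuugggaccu

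Sharing of sequence bears on the counts, because the tables keep reads mapped to several places in a total of their own. Of the windows of 22 bases in the Mir125b-1 hairpin, 3 of 56 were also found in Mir125b-2, where they made up 3 of 50. Reads of the shared 5p strand fit both hairpins, so the levels of Mir125b-1 and Mir125b-2 are uncertain and leave out any read that mapped to both. The hairpins of Mir99a, Mir99b, Mir100 and Mir125a shared no such window with another measured hairpin. Only exact windows of 22 bases were searched for. Whether shorter reads, or reads placed with a mismatch, were shared between near-identical strands such as miR-99a-5p and miR-100-5p was not tested. Copies outside annotated microRNA genes were not searched for, nor were CAST variants in the members.

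The 6 genes lie in 3 clusters (mm10, 1-based, all on the plus strand). On chromosome 16, Mir99a (ENSMUSG00000065530.1) runs from 77598936 to 77599000 and Mir125b-2 (ENSMUSG00000065472.1) from 77646273 to 77646343, and between them lies Mirlet7c-1 (77599657 to 77599750). All of these are inside introns of the noncoding host Mir99ahg, in each of the 4 transcripts that span them, and the last 4 bases of Mir125b-2 also overlap the unclassified transcript C130023A14Rik. On chromosome 9, Mir100 (ENSMUSG00000093011.1) runs from 41531425 to 41531504 and Mir125b-1 (ENSMUSG00000093354.1) from 41581926 to 41582002, on either side of Mirlet7a-2 (41536716 to 41536811). That cluster is intronic in the noncoding genes 3110039I08Rik and Gm49317, and Mir125b-1 also lies wholly in an exon of the small transcript Gm28119. The chromosome 17 cluster is the most compact of these. Mir99b (ENSMUSG00000065396.1) runs from 17830188 to 17830257, Mirlet7e from 17830352 to 17830444 and Mir125a (ENSMUSG00000065479.2) from 17830812 to 17830879. All of that cluster lies in introns of the protein-coding gene Spaca6, except that an exon of 1 of 3 spanning transcripts covers 47 of the 68 bases of the Mir125a hairpin. The Mir99 or Mir100 gene comes first in each cluster, the let-7 gene second and the Mir125 gene last.

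**Figure D1:**
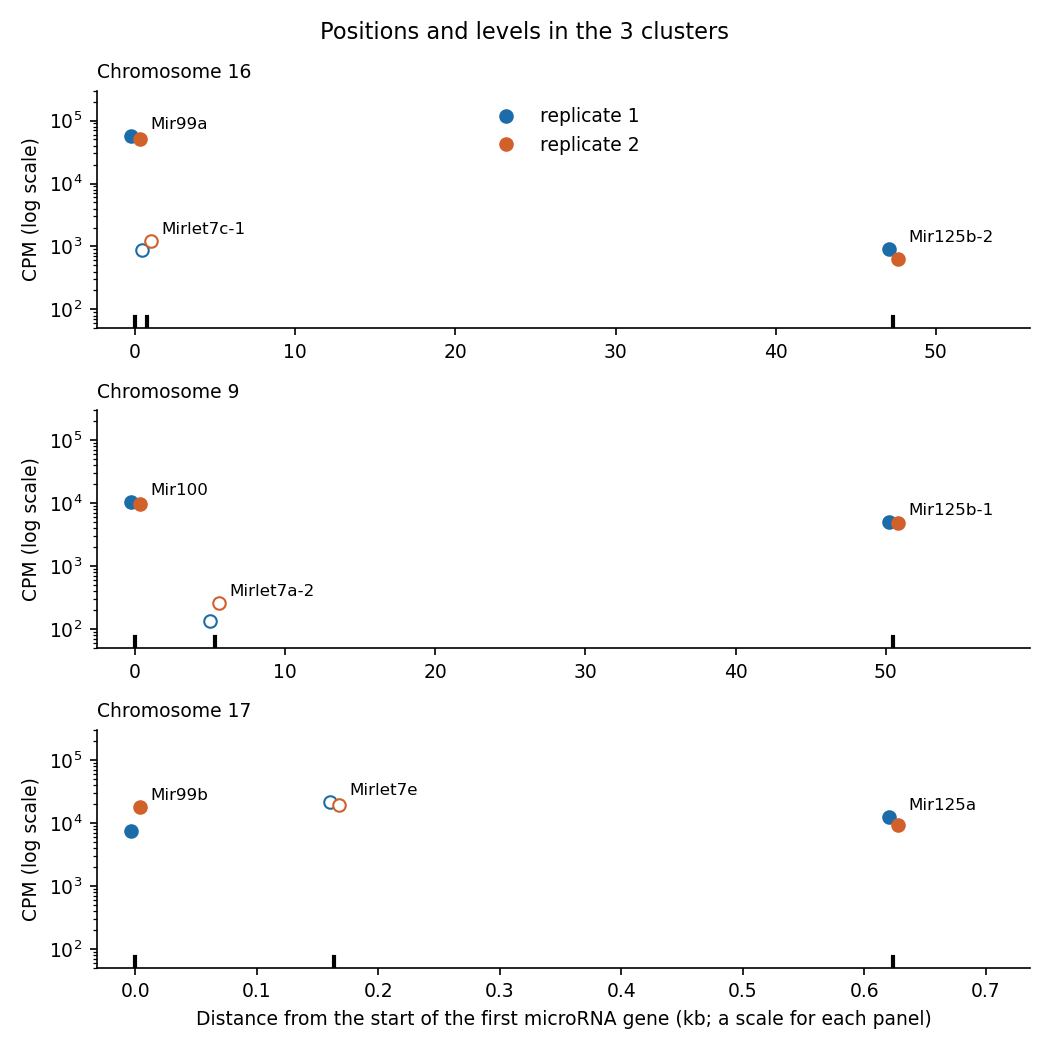
Each panel is a cluster, with the distance in kb from the start of its first microRNA gene on the x axis (a scale for each panel), gene starts as black ticks and the level in CPM on a log y axis. Points are single libraries, set slightly left (replicate 1) and right (replicate 2) of the start; filled points are members, open points let-7 genes. The genes on chromosome 17 lie within 0.7 kb and those of the other clusters are spread over about 50 kb; Mir99b is the member whose points lie farthest apart.

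Replicate 1 held 3555469 counts on the annotated strand of microRNA genes and replicate 2 held 2761003, the totals behind every share and CPM here. The tissue label was checked against 13 brain-enriched microRNA genes, of which 9 were detected in both libraries and which together held 8.74% and 6.77% of counts. The other 4, the copies of Mir124a and Mir9-2, had 2 to 10 counts per library. All 4 share windows of 22 bases with another hairpin, and reads mapped to several places are in no gene's count, so these values do not give the level of miR-124 or miR-9 in the tissue. Of the detected genes in this list, Mir9-1 and Mir9-3 share windows with Mir9-2, and the rest were not searched for shared windows. The shares of the list are thus those of counted reads only. Of 7 genes that mark other cells all 7 were detected, with 1.75% of counts in replicate 1 and 2.43% in replicate 2, mostly from Mir126a of endothelium. In a bulk tissue, fewer cells of a type and less RNA per cell cannot be told apart.

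Together the 6 genes held 9.26% of microRNA counts in replicate 1 (95% Wilson interval 9.23 to 9.29) and 9.39% in replicate 2 (9.35 to 9.42), or 9.32% ± 0.0916 (SD, n = 2). The interval covers counting error only, since amplified reads are not independent molecules, and the same holds for all intervals here. Genes with the seed ACCCGUA made up most of it. Mir99a, Mir99b and Mir100 held 7.42% of counts in replicate 1 and 7.91% in replicate 2, a mean of 7.66% ± 0.347. Mir125a, Mir125b-1 and Mir125b-2 held 1.84% and 1.48%, a mean of 1.66% ± 0.255, with reads of the shared miR-125b-5p strand missing from that sum where they mapped to both genes. Both libraries of the first group lay above both of the second.

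Mir99a had the highest level of the 6 genes, with 199796 counts in replicate 1 and 143074 in replicate 2, or 56194 and 51820 CPM. Its mean was 54007 ± 3093 CPM (SD, n = 2), and it ranked 4 among all 2202 genes in each library. Mir99a alone was 60.7% of the family's counts in replicate 1 and 55.2% in replicate 2. Both libraries stood above every value of the other 5 genes, the next of which, Mir99b, averaged 4.28 times less. Reads mapped to several places, 45.8% of all reads in replicate 1 and 41.0% in replicate 2, are in no gene's count. Ranks and shares here therefore describe counted reads only, and genes with shared strands may be placed too low.

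Mir100, the near twin of Mir99a in sequence, had 37184 counts in replicate 1 and 26359 in replicate 2. These were 10458 and 9547 CPM, a mean of 10003 ± 644, at ranks 21 and 27. The libraries were close to each other, and Mir99a exceeded Mir100 by nearly the same factor in both, 5.37 times in replicate 1 and 5.43 times in replicate 2.

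Mir99b differed between the animals. It had 26801 counts in replicate 1 and 48946 in replicate 2, although replicate 2 was the smaller library. The levels were 7538 and 17728 CPM, a mean of 12633 ± 7205, at ranks 30 and 15. Its share of the counts with the seed ACCCGUA was 10.2% in replicate 1 and 22.4% in replicate 2. It was the lowest of the 3 genes with that seed in replicate 1 and lay above Mir100 in replicate 2.

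Mir125a had 44247 counts in replicate 1 and 25892 in replicate 2. The levels were 12445 and 9378 CPM, a mean of 10911 ± 2169, at ranks 19 and 28. It made up 67.7% of the counted reads of the Mir125 genes in replicate 1 and 63.5% in replicate 2, a share that may be too high because Mir125a shares no 22-base window and the other Mir125 genes do.

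Mir125b-1 had 17839 and 13166 counts, or 5017 and 4769 CPM, with a mean of 4893 ± 176. Mir125b-2, which makes the same 5p strand, had 3273 and 1735 counts, or 921 and 628 CPM, with a mean of 774 ± 207. Mir125b-1 was 5.45 times as high as Mir125b-2 in replicate 1 and 7.59 times in replicate 2, a comparison of the reads that fit only 1 of these hairpins.

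In order of mean level the genes stood as Mir99a, Mir99b, Mir125a, Mir100, Mir125b-1 and Mir125b-2. Mir99a was separate from the rest in both libraries, and so were Mir125b-1 and Mir125b-2 from all genes above them. The places of Mir125b-1 and Mir125b-2 are uncertain, because reads that mapped to both are left out. The 3 genes in the middle could not be ordered, as their libraries overlapped. Mir125a exceeded Mir99b in replicate 1 and was below it in replicate 2, and Mir100 was below Mir125a in replicate 1 and slightly above it in replicate 2. A read of a small RNA stands for a whole mature strand, so counts were compared between genes with no scaling for length. Each count adds up both arms of a hairpin. Whether strands of different genes enter a library equally well was not measured, so differences between genes are differences in counts.

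**Figure D2:**
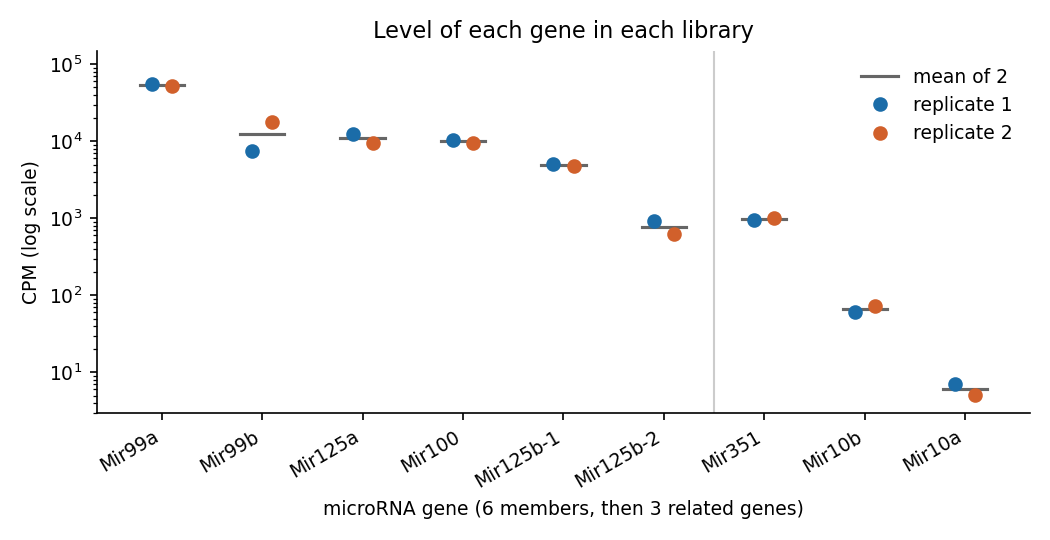
The y axis gives the level in CPM on a log scale, points are single libraries and grey lines the mean of both, with the 6 members on the left and 3 related genes on the right. Mir99a lies above all others at 56194 and 51820 CPM, Mir99b, Mir125a and Mir100 overlap, and Mir125b-2 is the lowest member at 921 and 628 CPM.

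Other genes with the same seeds or of the Mir10 superfamily were measured in the same libraries. Mir351, an X-linked gene whose mature strand shares the seed CCCUGAG and its first 8 bases with miR-125a-5p, had 3335 counts in replicate 1 and 2778 in replicate 2. Its level of 938 and 1006 CPM (mean 972 ± 48.2) was above Mir125b-2 in both libraries and below the other 5 genes. The count of Mir125b-2 leaves out reads that also mapped to Mir125b-1, so its place below Mir351 is uncertain. The RefSeq table gives the same seed to Mir6367 and Mir6394, which had no counted read in either library. The allowance of 3 counts made for such genes equals 0.844 CPM in replicate 1 and 1.09 CPM in replicate 2. That allowance covers counting error only. Reads mapped to several places are in no gene's count, so it sets no upper limit on the levels of Mir6367 and Mir6394. Mir10a and Mir10b, superfamily genes that lie in Hox clusters and are known from hindbrain and spinal cord, share a run of 11 bases between miR-10a-5p and miR-100-5p but have another seed.
miR-351-5p: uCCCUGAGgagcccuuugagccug
miR-10a-5p: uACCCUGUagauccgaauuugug
Mir10a had 25 and 14 counts, or 7.03 and 5.07 CPM, and Mir10b had 215 and 198 counts, or 60.5 and 71.7 CPM. Every member had higher CPM than Mir10b and Mir10a in both libraries.

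The clusters differed in how their counts were divided. The members on chromosome 16 held 5.48% ± 0.330 of all microRNA counts, those on chromosome 17 2.35% ± 0.504 and those on chromosome 9 1.49% ± 0.0820. With their let-7 genes the 3 clusters reached 11.5% in each library. Reads of miR-125b-5p that mapped to both of its genes are missing from the sums of chromosomes 16 and 9. Mirlet7c-1 and Mirlet7a-2 also share windows of 22 bases with another hairpin, whereas no gene of the chromosome 17 cluster does. The clusters are thus ordered by counted reads only, and those on chromosomes 16 and 9 may be placed too low.

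On chromosome 16 nearly all counts came from Mir99a, which was 96.9% of the cluster in replicate 1 and 96.6% in replicate 2. Mir99a exceeded Mir125b-2 by 61.0 and 82.5 times, and Mirlet7c-1 by 64.9 and 42.6 times. Mirlet7c-1 (865 and 1217 CPM) shares its mature 5p strand with Mirlet7c-2, as Mir125b-2 does with Mir125b-1, so both small values are uncertain in the same way.

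On chromosome 9 Mir100 was 67.0% of the cluster in replicate 1 and 65.5% in replicate 2, with Mir125b-1 at 32.1% and 32.7%. Mir100 exceeded Mir125b-1 by 2.08 times in replicate 1 and 2.00 times in replicate 2, so that the ratio changed by 1.04 times between the animals. The count of Mir125b-1 leaves out reads that also mapped to Mir125b-2, whereas Mir100 shares no window of 22 bases. The shares and ratios of this cluster are thus those of counted reads, and Mir125b-1 may be placed too low. Mirlet7a-2, whose hairpin shares windows with Mirlet7a-1, stood at 136 and 261 CPM.

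On chromosome 17, where none of the hairpins shared a window of 22 bases with another, each of the 3 genes held between 18.3% and 51.6% of the cluster's counts. Mirlet7e was 51.6% of the cluster in replicate 1 and 41.4% in replicate 2, Mir125a 30.1% and 20.3%, and Mir99b 18.3% and 38.3%. Mirlet7e exceeded Mir125a by 1.71 times in replicate 1 and 2.04 times in replicate 2. Mir99b stood at 0.606 times Mir125a in replicate 1 and at 1.89 times Mir125a in replicate 2, a change of 3.12 times among genes of 1 host. Relative to Mirlet7e it moved from 0.354 to 0.925 times, a change of 2.61 times. The order of Mir99b and Mir125a was thus opposite in the 2 animals.

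**Figure D3:**
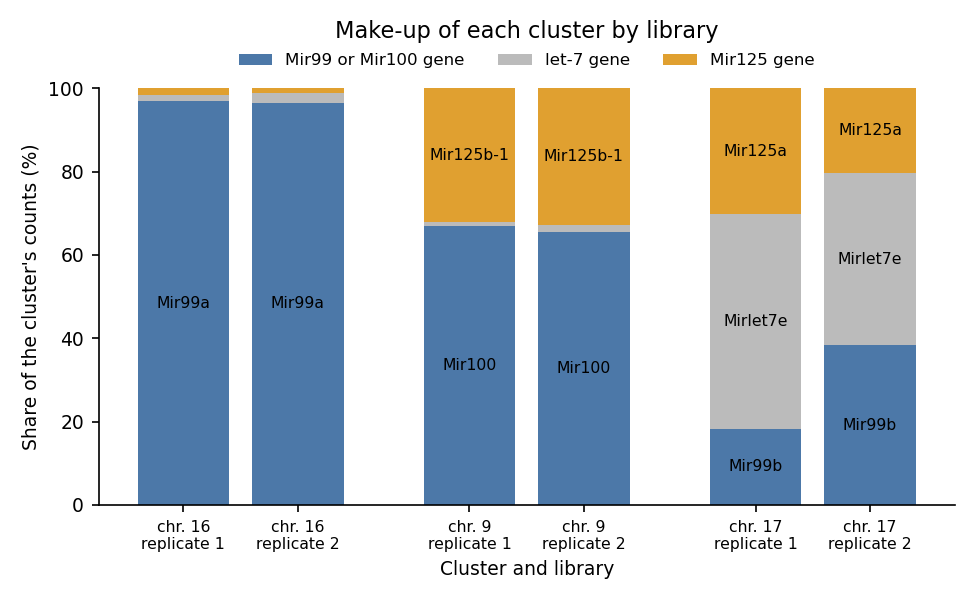
Stacked bars give the share of each cluster's counts (%) by gene and library, with the Mir99 or Mir100 gene in blue, the let-7 gene in grey and the Mir125 gene in orange. The bars of the chromosome 16 and chromosome 9 clusters look alike in both libraries, whereas on chromosome 17 Mir99b goes from 18.3% in replicate 1 to 38.3% in replicate 2.

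To set these differences beside those of other genes, log2 ratios of replicate 2 over replicate 1 were taken. For these, 0.5 was added to every count and the libraries were scaled by trimmed mean of M-values (TMM) factors. Mir99b had a log2 ratio of 1.27 (exact counting interval 1.25 to 1.29), a 2.41-fold higher level in replicate 2. The other 5 genes had ratios below 0, as had 229 of all 450 detected genes and 67 of the 135 with a mean of at least 500 CPM. That of Mir125b-2 was -0.51 (-0.60 to -0.43) and that of Mir125a -0.37 (-0.39 to -0.35). Mir100 had -0.09, Mir99a -0.08 and Mir125b-1 -0.04, folds of 1.07 or less.

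Of the 6 genes, 1 was at least 2-fold apart between the libraries, beside 17.6% of all 450 detected genes (79 genes). Among the 135 detected genes with a mean of at least 500 CPM, the range of the members, the share was 11.9% (16 genes). A count of 1 in 6 is near these backgrounds and is no result about the family. The median log2 ratio of the members was -0.09, against -0.02 over all detected genes and 0.01 over the 135. Their median distance from 0 was 0.23, against 0.37 over all detected genes and 0.32 over the 135.

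Mir99b itself was high among abundant genes. Of the 135 genes, 2 had a higher ratio, Mir185 with 3.23 and Mir181b-2 with 1.38, named here after their values were seen, and 10 were as far from 0 in either direction, Mir99b included. The libraries also differed in both marker lists. The 13 brain-enriched genes together had a log2 ratio of -0.33, and among them Mir128-1 was 2.04-fold higher in replicate 1, while Mir138-1 and Mir138-2 were 1.83-fold and 1.93-fold higher in replicate 2. The Mir128 and Mir138 genes were not searched for shared windows, so their ratios are those of counted reads only. The 7 genes of other cells together had a log2 ratio of 0.51. Of these 7 genes 3 were at least 2-fold apart, the epithelial Mir200b (2529 and 19 counts) and Mir200c (1973 and 169), higher in replicate 1, and the red cell Mir451a (60 and 1356), higher in replicate 2. Endothelial Mir126a, mural cell Mir143 and leukocyte Mir142 were 1.58-fold, 1.23-fold and 1.61-fold higher in replicate 2, leukocyte Mir223 was 1.87-fold higher in replicate 1, and none of the 7 was at 0 in a library. The part of these differences in that of Mir99b was not tested, and since each animal gave 1 library, a difference between animals cannot be told apart from one of dissection or preparation.

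**Figure D4:**
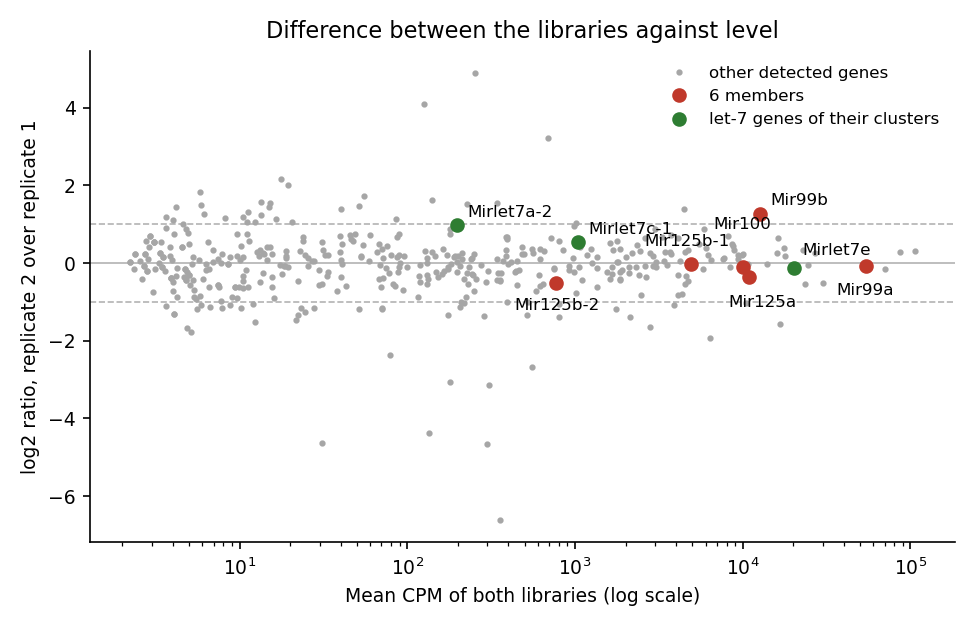
The log2 ratio of replicate 2 over replicate 1 is plotted against the mean CPM of both libraries (log scale), with members in red, the let-7 genes of their clusters in green and other detected genes in grey; dashed lines mark a 2-fold difference. Mir99b lies above the upper dashed line at 1.27, and the other 5 members lie between the dashed lines, at -0.51 to -0.04.

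The let-7 genes of the same clusters had ratios of 0.98 for Mirlet7a-2, 0.53 for Mirlet7c-1 and -0.11 for Mirlet7e. Only Mirlet7e of these shares no window with another hairpin. On chromosomes 16 and 9 both members were below 0 and the let-7 gene above it, and on chromosome 17 Mir125a and Mirlet7e were below 0 and Mir99b above it. The ratios of Mir99a, Mir100 and Mir125b-1, at -0.09 to -0.04, were close to 0, and 229 of all 450 detected genes were below 0.

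The genes whose levels were most like those of a member were found by distance on log2(CPM + 1) over the 2 libraries, which is few points to judge a pattern from. Mir125b-2 had the closest neighbours, Mir381 at a distance of 0.046 (904 and 645 CPM) and Mir874 at 0.074 (934 and 660 CPM). Mir30d at 0.154 (10944 and 10515 CPM) and Mir324 at 0.181 (9227 and 9610 CPM) were nearest to Mir100. For Mir125a the nearest were Mir30d at 0.248 and Mir100 itself at 0.252. Mir125b-1 had Mir676 at 0.250 and Mir708 at 0.277. Mir99a and Mir99b had the most distant neighbours. The nearest to Mir99a were Mirlet7b at 0.531 (74647 and 65516 CPM) and Mirlet7g at 0.990, and those of Mir99b were Mir126a at 0.784 (12842 and 19723 CPM) and Mir130a at 0.792.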

How the data were processed

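Small RNA libraries under 30 bases, per the labels, were analysed from 2 animals of 1 group, with replicate numbers as the labels give them. The deposited values are raw counts of reads on each microRNA gene, in a separate table for each library, which the authors neither pooled nor normalized. Build mm10 and GENCODE M21 are named in the notes deposited with each table; for the aligner, the counter and any trimming or filter, a name is not given in the sources used here. The tables have no header. Their 3 value columns were read as either strand, annotated strand and opposite strand, from their layout and values. The annotated strand was used here. Whole hairpins are counted, so both arms are added up. Totals that name no gene (69.6% of reads in replicate 1 and 72.2% in replicate 2, of which reads mapped to several places were 45.8% and 41.0% of all reads) were left out of library sizes.

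All 2202 IDs matched M21. CPM are annotated-strand counts scaled to 1000000 over all microRNA genes. Scaling factors (TMM) came from edgeR 4.0.16 on genes with a summed count of at least 10. No test was run, because there is no second group to compare with. Shares have 95% Wilson intervals and ratios 95% exact Clopper-Pearson intervals (scipy 1.17.1), for counting error only. A count of 0 allows 3 counts. The ratio script was tested on simulated data. Named genes were the 6 members, the let-7 gene of each cluster, genes with the same seed, Mir10a, Mir10b and the 2 nearest genes of each member. The rule for the members uses symbols alone, but it, the lists and the other rules were set with earlier results of these data known. Alternatives were the strand column, the denominator, the scaling, the count added, the filter and each replicate left out.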

Additional observations from a re-analysis of the deposited data

How the results depend on the processing

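Shares depend on what they are taken of. With a denominator without let-7 and Mir98 the family held 13.8% of counts, the Mir99 and Mir100 genes 11.4% and the Mir125 genes 2.45%, and the members on chromosomes 16, 9 and 17 held 8.10%, 2.20% and 3.50%. With all mapped reads, those mapped to several places included, these shares were 3.50%, 2.88%, 0.622%, 2.06%, 0.559% and 0.883% in the same order. With counts on either strand, where Mirlet7e, which overlaps a microRNA gene on the opposite strand, has no count, the family held 9.94%, the Mir99 and Mir100 genes 8.17% and the members on chromosomes 16 and 9 5.84% and 1.59%. Without replicate 1 or without replicate 2 the family held 9.39% or 9.26%, the Mir99 and Mir100 genes 7.91% or 7.42%, the Mir125 genes 1.48% or 1.84%, and the members on chromosomes 16, 9 and 17 5.24% or 5.71%, 1.43% or 1.55% and 2.71% or 2.00%. All 6 members were detected at 10 CPM and at 1 read too. The log2 ratio of each of the 6 members kept its sign with TMM or RLE factors, by library size, with 2 added to each count and on either strand, and that of Mir99b ranged from 1.23 to 1.28. Genes at least 2-fold apart numbered 79 of 450, 50 of 308 with a summed count of 100 or more, 315 of 795 with 1 read or more, and 16 of 135 with a mean of 500 CPM or more, the last chosen after seeing the data; fewer or more genes enter each. No paired analysis was possible because there is 1 group. Depth limits Mir10a, with 14 to 25 counts, and the genes without reads, more than the members, each with at least 1735 counts in a library.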
